A study of Sus scrofa with 8 samples.

Results

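The constitutive proteasome was represented by 27 of the 43603 pig probes on the array, chosen because their annotation contains the word proteasome; the 3 interferon-inducible subunits PSMB8, PSMB9 and PSMB10 were set apart. The probes stood for 17 of the 1861 genes with a named probe, where most probes on the array had no gene name. The annotation of 1 further probe gave only a match to a beta type 3 subunit of the parasite Theileria parva over 7% of its length, so it was given no pig gene name. By class the genes were 2 core alpha subunits (PSMA5 and PSMA6), 2 core beta subunits (PSMB4 and PSMB7), 1 ATPase regulatory subunit (PSMC2), 8 genes named as non-ATPase regulatory subunits (PSMD1, PSMD4, PSMD8, PSMD9, PSMD10, PSMD11, PSMD12 and SEM1), 3 activators (PSME1, PSME2 and PSME3) and the proteasome-associated protein ECM29. Of these, 13 genes were measured in blood, and no measured gene differed between the diets beyond the spread between animals. Instead, the measured genes varied together across the 8 arrays, with 7 of the 13 highest in 1 SDW animal and 7 lowest in another. Their median pairwise correlation was 0.41, and 0.29 after subtraction of the slide means (0.026 and 0.032 for all kept probes). The arrays of those animals were also the brightest and the dimmest by their 75th percentile of intensity. The part of array brightness in the pattern was not tested.

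The study asked how shochu distilled water (SDW) in the feed bears on the physiology of miniature pigs; the labels do not say more about the liquid. Both groups were female Clawn miniature pigs, described as conventional animals, 8 to 9 months old, with 1 whole blood sample and 1 single-colour (Cy3) array each. The 4 control animals ate standard dry feed, and the 4 SDW animals ate that feed with equal weights of water and SDW. The design text puts sampling at 12 weeks of feeding, while the texts on single samples name 14, 15, 16 and 17 weeks for animals 1, 2, 3 and 4 of either diet.

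The proteasome is the protease of the cytosol and nucleus that degrades proteins tagged with ubiquitin. Its barrel-shaped core is built of rings of alpha subunits, which form the gate, and of beta subunits, some of which carry the cutting sites. A regulatory particle of ATPase and non-ATPase subunits binds ubiquitin chains, unfolds the substrate and feeds it into the core, whereas the PSME activators open the gate without ATP. Interferon gamma induces alternative catalytic beta subunits that take the place of the constitutive ones. These alternative subunits alter the peptides presented on major histocompatibility complex class I. In the blood samples here, PSMB8, PSMB9 and PSMB10 were each well above background on all 4 arrays of either diet.

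Levels are log2 spot intensities after subtraction of the 75th percentile of the same array, so a level of 0 equals that percentile and a difference of 1 is a doubling. Levels of different probes are not compared, since each probe has its own brightness. On each array between 35.2% and 43.5% of all probes exceeded background clearly by the scanner's own flag, no spot was saturated, and the 75th percentile ranged from 39.9 to 73.1 intensity units, lowest in SDW 4 and highest in SDW 2. The arrays came from 3 slides with both diets on each. Slide 1 held control 3 with SDW 2 and SDW 3, slide 2 held controls 2 and 4 with SDW 1, and slide 3, read on another scan day, held control 1 with SDW 4. For the median kept probe, slide accounted for 44.7% of the variance over the arrays, and for the median proteasome gene 43.3%. A part of such a share falls to 3 slides over 8 arrays even without a slide effect. In whole blood, fewer cells of a type and less RNA per cell cannot be told apart. Among white cell and platelet markers on the fixed lists, 5 of 14 neutrophil, 4 of 8 monocyte, 6 of 13 T cell, 2 of 10 B cell and 5 of 9 platelet genes were measured under their names. None of the 12 listed erythroid genes was. Only 2882 of the 43603 probes had a gene name, so a listed gene counted as not measured may still have had a probe.

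Of the 27 proteasome probes, 19 carried the flag for a signal well above background on 4 or more arrays and were kept for testing, among 17355 such probes in all. The kept probes included all 7 designed on a RefSeq mRNA and 12 of the 20 designed on a cluster of expressed sequence tags. The remaining 8 were PSMA5, both probes of PSMA6, both probes of PSMD9, PSMD11, PSMB4 probe 2 and PSMD4 probe 4. Of these, 7 were well above background on no array. Under the annotation rule, the core alpha class therefore had no measured gene. The core beta subunits PSMB5 and PSMB6, which carry the other constitutive cutting sites, had no probe that met the rule. PSMA4, PSMC1 and PSMC5, measured outside the rule, are described under other observations. A probe that is not well above background does not show that its gene is silent.

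The sequences printed here belong to the probes on which the comparison of probes and the largest diet differences rest. PSMD4, the ubiquitin receptor of the regulatory particle, and PSME2, the beta subunit of the interferon-inducible activator, had several probes that could be set against each other, and PSMB7, a catalytic subunit, had the largest difference between the diets in absolute size among the genes. Sequences run 5′ to 3′ as given in the scanner files. Capitals mark AATAAA, the signal for cleavage and polyadenylation near the end of an mRNA, in PSMD4 probe 1, of which the 30 bases nearest the 3′ end are shown.
PSMD4 probe 1: tctgtaaccgctgcacgtaAATAAAgcttg
PSMD4 probe 2: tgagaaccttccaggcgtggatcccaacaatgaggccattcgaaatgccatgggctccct
PSMD4 probe 3: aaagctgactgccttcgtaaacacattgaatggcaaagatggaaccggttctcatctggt
PSMB7: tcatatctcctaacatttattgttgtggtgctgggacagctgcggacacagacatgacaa
PSME2 probe 1: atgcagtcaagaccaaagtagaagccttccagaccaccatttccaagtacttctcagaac
PSME2 probe 2: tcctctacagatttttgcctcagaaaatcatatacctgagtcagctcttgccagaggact

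The probes of 1 gene read different stretches of its transcript. PSMD4 probe 2 covers positions 1032 to 1091 and probe 3 positions 468 to 527 of their design transcripts, and no pair of probes for 1 gene shared a run longer than 8 bases on either strand. AATAAA occurred in 4 of the 27 proteasome probes (14.8%), all 4 of them kept, against 12.1% of all 43603 probes, 17.3% of the kept and 8.67% of those not kept. Its reverse complement TTTATT occurred in 3 proteasome probes and in 4.63% of all probes. The median GC content was 43.3% for the proteasome probes and 40% for all probes. A match to these letters is a description of the probe and not evidence of a used site.

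The comparison of the diets gave no call in any class. In limma, 0 of the 19 kept proteasome probes passed an adjusted p of 0.05, where 0% of all 17355 kept probes did. At an unadjusted p under 0.05 the limma count was again 0 of 19, against 1.45% of all kept probes (0.928% higher and 0.519% lower in SDW animals). The diets overlapped on every kept proteasome probe, whereas they did not overlap for 0.986% of the 17346 kept probes with a value on all arrays (0.600% with SDW above, 0.386% with SDW below). Of the 13 measured genes, each read through the brightest of its kept probes on average, 5 had a higher and 8 a lower SDW mean. The median difference was -0.012, against 0.018 over all kept probes, of which 52.9% had the higher and 47.1% the lower SDW mean. For 7 of the 13 genes the difference was under 0.1 in absolute size. The 95% intervals of the 13 differences reached from -1.22 to 0.88 with 4 animals a diet.

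**Figure D1:**
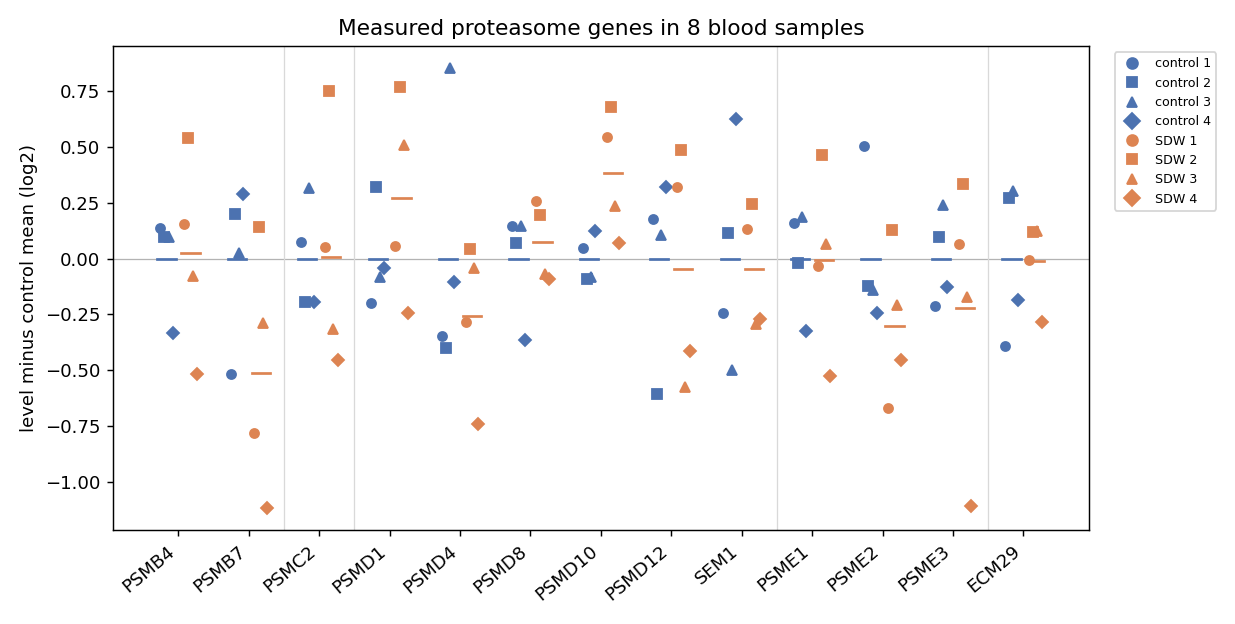
Level of each measured proteasome gene in each animal, on the log2 scale relative to the control mean of that gene; blue symbols are the 4 controls, orange symbols the 4 SDW animals, short lines the diet means, and vertical lines part the subunit classes. The diets overlap for all 13 genes; SDW 2 is highest for 7 genes and SDW 4 is lowest for 7 genes.

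PSMB7, the core beta subunit that cuts after basic residues, had the most negative difference. Its levels were 1.40, 2.11, 1.94 and 2.21 in controls 1 to 4 and 1.13, 2.06, 1.63 and 0.80 in SDW animals 1 to 4. SDW 1 and SDW 4 lay below every control, SDW 2 lay among the controls, and SDW 3 lay between control 1 and the other controls. The control mean was 1.92 ± 0.36 and the SDW mean 1.40 ± 0.55 (SD, n = 4), a difference of -0.51 with an SE of 0.32 (limma, unadjusted p = 0.140, adjusted p = 1.00). Within slides the difference was -0.099 on slide 1, -1.03 on slide 2 and -0.60 on slide 3. With slide as a fixed block it was -0.57 with an SE of 0.24 (limma, unadjusted p = 0.0432, adjusted p = 0.731).

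PSMB4, a structural beta subunit without a cutting site, showed almost no mean difference. Its levels were 5.81, 5.77, 5.77 and 5.34 in the controls and 5.83, 6.21, 5.60 and 5.16 in the SDW animals. The SDW animals held both the highest and the lowest value. The difference was 0.026 with an SE of 0.27 (limma, adjusted p = 1.00).

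Each constitutive catalytic subunit has an inducible counterpart, and PSMB7 with PSMB10 was the single pair measured here. The within-array log2 ratio of PSMB7 to PSMB10 was -4.76, -4.05, -4.16 and -3.10 in the controls and -5.19, -4.28, -4.55 and -5.03 in the SDW animals. The size of the ratio reflects probe brightness and is not read. Its change between diets was -0.75. Leaving out 1 animal at a time, the change ranged from -0.99 without control 1 to -0.44 without control 4. Only SDW 1 and SDW 4 lay below the lowest control. Over the 70 assignments of the animals the exact permutation test gave p = 0.114, two-sided, where the smallest p it can give is 0.0286. The family held 1 pair, so no adjustment was made. PSMB10 itself differed by 0.23, 0.091 and 0.30 on its 3 probes, PSMB9 by -0.068 and PSMB8 by -0.50 (limma, adjusted p = 1.00 for each).

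PSMC2, an ATPase of the ring that unfolds the substrate, was the only measured gene of its class under the annotation rule. Levels were 3.37, 3.11, 3.62 and 3.11 in the controls and 3.35, 4.05, 2.99 and 2.85 in the SDW animals. The SDW animals again spanned the controls, with SDW 2 at the top and SDW 3 and SDW 4 at the bottom. The means were 3.30 ± 0.24 and 3.31 ± 0.54 (SD, n = 4), a difference of 0.0084 with an SE of 0.30 (limma, adjusted p = 1.00).

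Among the 6 measured genes of the non-ATPase class, 3 had a higher and 3 a lower SDW mean, with a median difference of 0.014. PSMD10, or gankyrin, is an assembly chaperone of the regulatory particle although its name places it among the subunits, and it had the smallest unadjusted p of the 13 genes. On probe 1 its levels were -0.042, -0.18, -0.17 and 0.034 in the controls and 0.45, 0.59, 0.14 and -0.022 in the SDW animals. SDW 1, SDW 2 and SDW 3 lay above every control, and SDW 4 lay inside the control range. The difference was 0.38 with an SE of 0.22 (limma, unadjusted p = 0.115, adjusted p = 1.00), and it was 0.54, 0.53 and 0.020 on slides 1, 2 and 3.

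The second probe of PSMD10 did not carry the same pattern. Its levels were -2.79, -1.47, -0.83 and -1.22 in the controls and -1.11, -0.71, -1.21 and -2.68 in the SDW animals. The lowest values were those of control 1 and SDW 4, the arrays of slide 3, and slide accounted for 95.2% of its variance. It was well above background on 3 arrays of each diet, and its difference was 0.15 with an SE of 0.51.

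PSMD4 was read by 3 kept probes, and all 3 had a lower SDW mean. Levels on probe 1 were 6.48, 6.43, 7.69 and 6.72 in the controls and 6.55, 6.88, 6.79 and 6.09 in the SDW animals. Probe 2 gave 4.12, 4.07, 5.25 and 4.58 in the controls and 3.76, 4.64, 4.60 and 3.68 in the SDW animals. Probe 3 gave -0.014, -0.22, 0.96 and 0.68 in the controls and -1.40, 0.25, 0.097 and -0.32 in the SDW animals. Control 3 was the highest array on all 3 probes, while the lowest was SDW 4 on probes 1 and 2 and SDW 1 on probe 3.

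The PSMD4 differences were -0.26, -0.33 and -0.70 for probes 1, 2 and 3, with SEs of 0.33, 0.35 and 0.41 (limma, unadjusted p = 0.449, 0.364 and 0.120). Without control 3 the difference on probe 1, which stands for the gene, was 0.028. Within slides 1, 2 and 3, probe 3 differed by -0.79, -1.63 and -0.31, and probe 2 by -0.63, -0.56 and -0.45. With slide as a fixed block in limma, probe 2 had a difference of -0.55 (unadjusted p = 0.0284) and probe 3 of -0.96 (unadjusted p = 0.0114), both at an adjusted p of 0.731. With PSMB7 these made 3 of the 19 kept probes under an unadjusted p of 0.05 in that fit, against 6.60% of all kept probes (3.20% lower in SDW animals), and 0 passed after adjustment, where 0% of all probes did.

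Of the kept probes of PSMD1, the large scaffold of the regulatory particle base, only probe 2 was well above background on all 8 arrays. Levels on probe 1 were -1.91, -1.39, -1.79 and -1.75 in the controls and -1.65, -0.94, -1.20 and -1.96 in the SDW animals, with 3 arrays of each diet well above background. SDW 2 and SDW 3 lay above every control and SDW 4 below every control. The difference was 0.27 with an SE of 0.27 (limma, adjusted p = 1.00). Probe 2 gave a difference of 0.15 with an SE of 0.38, from levels between -2.45 and -0.90.

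The lid subunits PSMD8, PSMD12 and SEM1 differed little between the diets. PSMD8 had the narrowest range of the 13 genes, 0.62 from the lowest to the highest array, and a difference of 0.074 with an SE of 0.22. PSMD12 ranged from -1.91 to -0.81, with a difference of -0.046 and an SE of 0.32. SEM1, a small acidic lid protein also known as DSS1, ranged from -0.31 in control 3 to 0.81 in control 4, with a difference of -0.047 and an SE of 0.29. For each the limma adjusted p was 1.00.

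All 3 activators had a lower SDW mean, with a median difference of -0.22, and none of them passed the limma test. PSME1, the alpha subunit of the interferon-inducible activator, had levels of 5.71, 5.53, 5.74 and 5.22 in the controls and 5.51, 6.01, 5.61 and 5.02 in the SDW animals. SDW 2 was highest and SDW 4 lowest, and the means differed by -0.0072 with an SE of 0.26.

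PSME2, its partner in the same ring, had levels of 5.89, 5.26, 5.24 and 5.14 in the controls and 4.71, 5.51, 5.17 and 4.93 in the SDW animals on probe 1. Control 1 stood above the other controls, and SDW 1 and SDW 4 lay below them all. The difference was -0.30 with an SE of 0.27 (limma, unadjusted p = 0.286, adjusted p = 1.00), and within slides it was 0.099, -0.49 and -0.96. Probe 2 gave 1.94, 1.43, 1.17 and 1.34 in the controls and 0.34, 1.50, 1.49 and 1.12 in the SDW animals, a difference of -0.36 with an SE of 0.31.

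PSME3 forms a separate nuclear activator. Its levels were -0.91, -0.60, -0.45 and -0.82 in the controls and -0.63, -0.36, -0.86 and -1.80 in the SDW animals, the last of which was the array not well above background. The difference of -0.22 with an SE of 0.32 (limma, adjusted p = 1.00) was 0.0061 without both arrays of slide 3. ECM29, an adaptor that tethers the regulatory particle to the core, had levels of 2.45, 3.11, 3.14 and 2.65 in the controls and 2.83, 2.96, 2.97 and 2.56 in the SDW animals. Its lowest values were again those of control 1 and SDW 4, slide accounted for 70.7% of its variance, and the diets differed by -0.012 with an SE of 0.24.

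**Figure D2:**
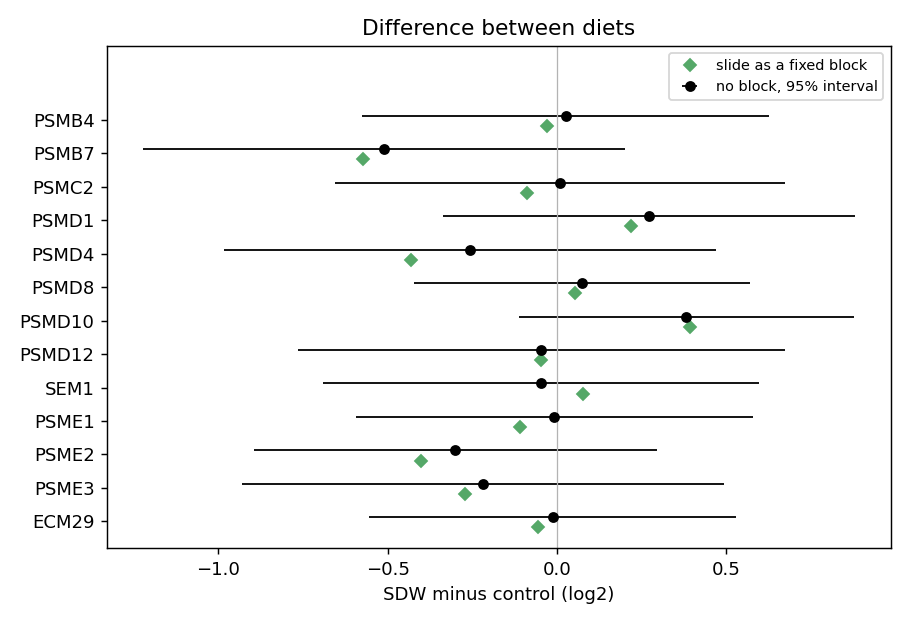
Difference between the diets for each measured proteasome gene (SDW minus control, log2); black points with lines are the limma estimates and their 95% intervals over 4 and 4 animals, green diamonds the estimates with slide as a fixed block. Every black interval includes 0, and the estimates reach from -0.51 for PSMB7 to 0.38 for PSMD10.

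The sign of the difference was the same on all 3 slides for 3 of the 13 genes, PSMB7, PSMD4 and PSMD10, against 27.7% of all kept probes with a value on every array. PSMB7 and PSMD4 were lower in SDW animals on each slide, as were 12.7% of all kept probes, and PSMD10 was higher, as were 15.0%. For the remaining 10 genes the slides disagreed in sign. The probe described by the Theileria match was well above background on all 8 arrays, with levels of 2.41, 1.72, 2.05 and 1.94 in the controls and 1.82, 1.95, 1.57 and 1.96 in the SDW animals, a difference of -0.20 with an SE of 0.23 (limma, adjusted p = 1.00). All 4 SDW animals lay below the control mean but inside the control range, except SDW 3 below it. Which transcript this probe reads was not tested.

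The ubiquitin pathway that delivers substrates was thinly covered by named probes and gave no call either. Of 60 listed genes 10 were measured, 7 with a higher and 3 with a lower SDW mean and a median difference of 0.022, and 0 passed in limma, with 0 at an unadjusted p under 0.05. Those named by the rule, none near the threshold, were UCHL1, a deubiquitinating enzyme (difference 0.38, SE 0.49), ZFAND5, a zinc finger protein that stimulates the proteasome (-0.20, SE 0.28), and UBE2D3, a ubiquitin-conjugating enzyme (-0.18, SE 0.28). UBB, a polyubiquitin gene, differed by 0.012 with an SE of 0.24.

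Marker genes of some blood cells had means that differed in 1 direction by diet, without passing the test, and their part in the proteasome values was not tested. All 5 measured neutrophil genes had a lower SDW mean, with a median difference of -0.76, and their summed linear level, in units of the 75th percentile of the array, ranged from 540 to 875 in controls and from 414 to 728 in SDW animals. All 3 measured eosinophil and basophil genes had a higher SDW mean, with a median difference of 0.82 and summed levels of 30.1 to 68.4 in controls and 55.3 to 137 in SDW animals. Both measured natural killer and cytotoxic cell genes (of 8 listed) had a lower SDW mean, with a median of -0.64 and summed levels of 400 to 667 in controls and 188 to 428 in SDW animals. Each sum leaned on its brightest probes and does not stand for its list evenly. Control means were 8.92 for GNLY against 0.40 for KLRK1, and 5.37 for ALOX15 against 1.19 for CCR3 and -1.53 for MS4A2. Among the neutrophil genes, ALOX5AP (8.82) and MMP9 (7.08) were the brightest. The 6 T cell genes were split 3 and 3, with a median of -0.091, and the medians were -0.37 for B cell, 0.072 for monocyte and 0.10 for platelet genes. Of the interferon response list 7 of 15 genes were measured, 2 higher and 5 lower in SDW animals, and of the immunoproteasome and class I loading list 5 of 11, 2 higher and 3 lower. None of the genes on these lists passed the limma test.

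Across animals the proteasome genes varied together more than kept probes in general. Over the 78 pairs of the 13 genes the median Pearson correlation across the 8 arrays was 0.41, against 0.026 for all kept probes, and 34.6% of the pairs exceeded 0.5, against 17.5%. Arrays share slides and scans and each point is 1 animal, so these values are descriptions with no test. The median was 0.30 over the 6 arrays of slides 1 and 2 (0.033 for all kept probes), 0.29 after subtraction of the slide means (0.032) and 0.47 after subtraction of the diet means (0.029). The share of pairs over 0.5 was then 29.5%, 25.6% and 42.3%, against 20.6%, 20.5% and 19.6% for all kept probes. The median over the 8 arrays was not higher within subunit classes: 0.26 over 19 pairs of the same class and 0.44 over 59 pairs of different classes.

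**Figure D3:**
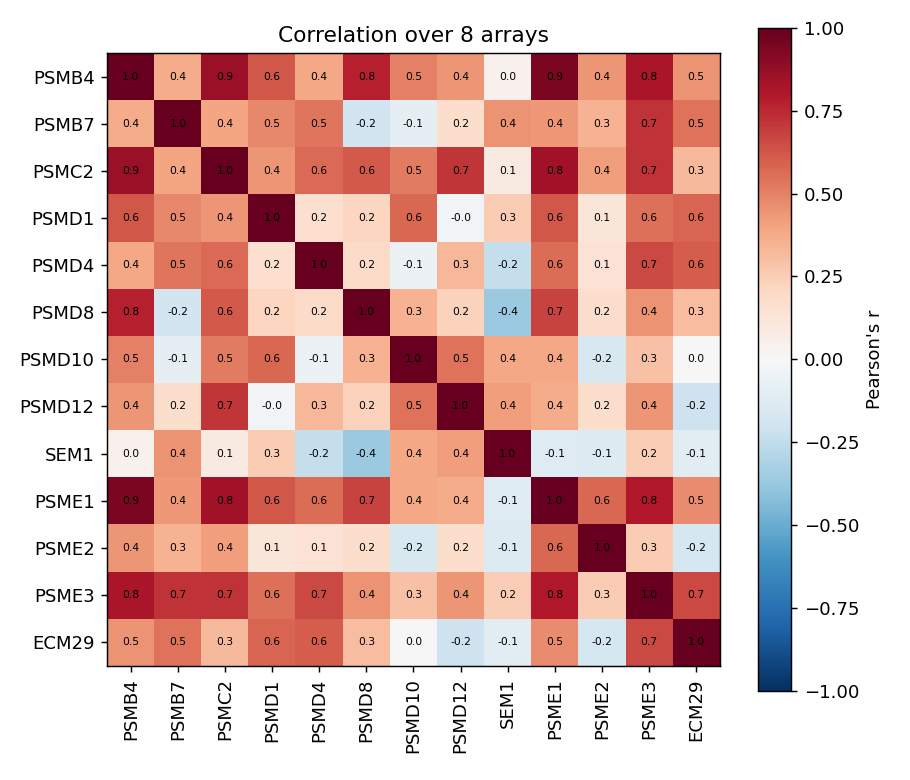
Pearson correlation of the level of each pair of measured proteasome genes over the 8 arrays, with genes in the order of the subunit classes; red is positive, blue negative, and each cell gives r to 1 decimal. PSMB4, PSMC2, PSME1 and PSME3 form the block of highest values, from 0.73 to 0.94, and SEM1 has the lowest values.

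The tightest group crossed the classes. PSME1 and PSMB4 correlated at 0.94 (0.90 over the 6 arrays of slides 1 and 2), PSMC2 and PSMB4 at 0.86 (0.83), PSMC2 and PSME1 at 0.84 (0.81) and PSMB4 and PSME3 at 0.82 (0.85). PSMB7 and PSME3 reached 0.72 over all arrays but 0.16 over those 6. SEM1 was the least correlated gene, with a median of 0.068 with the other 12 genes and its lowest value, -0.37, with PSMD8.

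The highest and the lowest value averaged over the genes were both those of SDW animals. When each gene was centred on its mean over the 8 arrays, the average over the 13 genes was -0.026, 0.0043, 0.14 and -0.018 in the controls and 0.010, 0.40, -0.060 and -0.45 in the SDW animals. SDW 2 was the highest array for 7 of the 13 genes and for 13.3% of all kept probes, and SDW 4 was the lowest for 7 genes and for 15.3% of all kept probes. The same arrays had the highest and the lowest 75th percentile, and the part of array brightness in the pattern was not tested. The controls stayed within -0.026 to 0.14, so the SD was 0.077 among controls and 0.35 among SDW animals (n = 4 each); a difference in spread was not tested.

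Different probes of the same gene gave a similar order of animals for PSMD4 and PSME2, and the correlation was lower for PSMD10 and PSMD1. There were 6 such pairs of kept probes, each tested by exact permutation over 8 arrays, two-sided, with Benjamini-Hochberg adjustment over the 6 pairs. The permutation shuffled the arrays without regard to slide, although arrays share slides and scans. The p-values of the 6 pairs therefore take no account of slide, and the part of slide in these correlations was not tested. PSMD4 probes 1 and 2 had r = 0.93 and rho = 0.93 (exact permutation p = 0.000794 and 0.00223, adjusted 0.00476 and 0.0134), and r was 0.85 without control 3 and SDW 4, the arrays farthest from the median. PSMD4 probes 2 and 3 had r = 0.84 and rho = 0.90 (exact permutation p = 0.00905 and 0.00456, adjusted 0.0181 and 0.0137), and r was 0.86 without the same arrays. PSMD4 probes 1 and 3 had r = 0.64 (exact permutation p = 0.104, adjusted 0.156) and rho = 0.79 (p = 0.0279, adjusted 0.0419), and r was 0.49 without those arrays.

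PSME2 probes 1 and 2 had r = 0.89 and rho = 0.88 (exact permutation p = 0.00603 and 0.00724, adjusted 0.0181 and 0.0145), and r was 0.67 without control 1 and SDW 1. Over the 6 arrays of slides 1 and 2, r was 0.89 for PSMD4 probes 1 and 2, 0.91 for probes 2 and 3, 0.67 for probes 1 and 3, and 0.88 for PSME2. PSMD10 had r = 0.41 and rho = 0.52 (exact permutation p = 0.302 and 0.197, adjusted 0.363 and 0.236), and r was -0.079 without SDW 1 and SDW 2. PSMD1 had r = -0.076 and rho = -0.43 (exact permutation p = 0.854 and 0.299, adjusted 0.854 and 0.299), r was -0.51 without SDW 2 and SDW 3, and it was 0.63 over the 6 arrays of slides 1 and 2, where PSMD10 had 0.49.

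**Figure D4:**
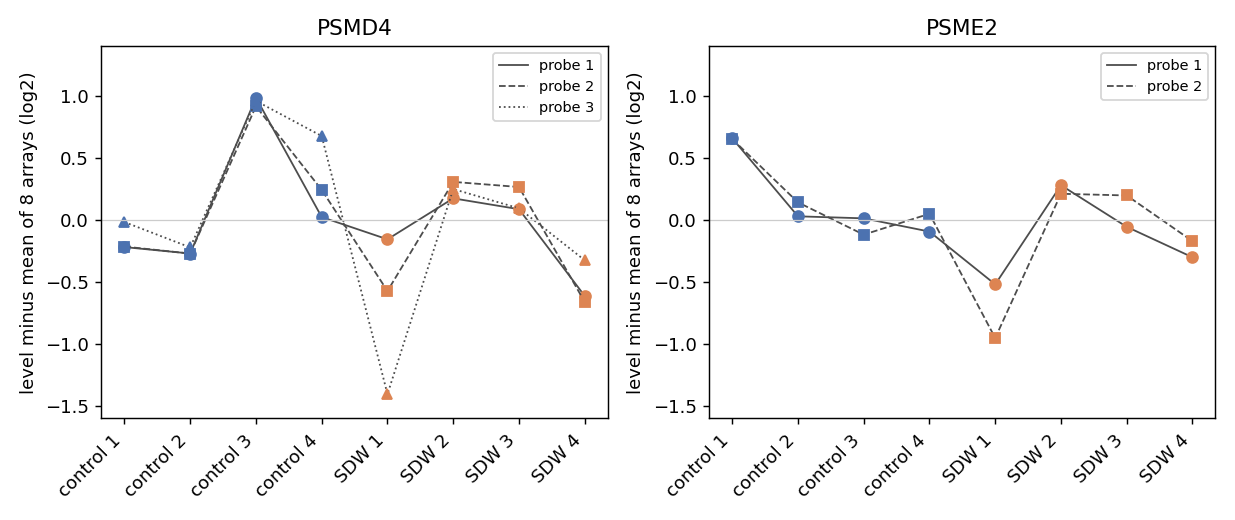
Levels of the 3 kept probes of PSMD4 (left) and the 2 kept probes of PSME2 (right) on each array, on the log2 scale relative to the mean of the probe over the 8 arrays; blue symbols are controls, orange symbols SDW animals, and lines join the values of 1 probe without implying an order of animals. All 3 PSMD4 probes peak in control 3, and both PSME2 probes peak in control 1 and are lowest in SDW 1.

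Under the annotation rule, the core alpha subunits, which form the outer rings and the gate, had only probes near background, with 1 exception on 1 array. Signals of PSMA5 ranged from 2.47 to 9.78 intensity units and those of PSMA6 probe 2 from 2.43 to 4.47, with no array well above background. PSMA6 probe 1 gave 292 in SDW 2 and between 2.07 and 3.92 on the other 7 arrays. SDW 2 alone stood well above background, at a level of 2.00, and the other 7 arrays lay at or below -3.88. PSMA6 probe 2 was at 2.75 on the array of SDW 2.

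A jump of this kind was rare, and on SDW 2 such jumps clustered in 1 area of the array. Of all 43603 probes, 6.33% were well above background on 1 array only, and 78 (0.179%) were so and also stood at least 5 above the next array on the log2 scale, 32 of them on SDW 2 and 32 on control 1. Of the 32 on SDW 2, 30 lay in rows 159 to 197 and columns 1 to 12 of a grid of 532 rows and 85 columns. That area, which was not fixed beforehand, held 458 probes, and PSMA6 probe 1 sat in it at row 175 and column 8. PSMA6 probe 1 was the only 1 of the 27 probes that met the annotation rule in that area, and none of the 19 kept proteasome probes lay there. The 114 spots within 5 rows and columns of PSMA6 probe 1 had a median deviation from their own 8-array medians of 0.22 on SDW 2, where the spots around the kept proteasome probes had medians between -0.81 and -0.0037 on the same array.

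**Figure D5:**
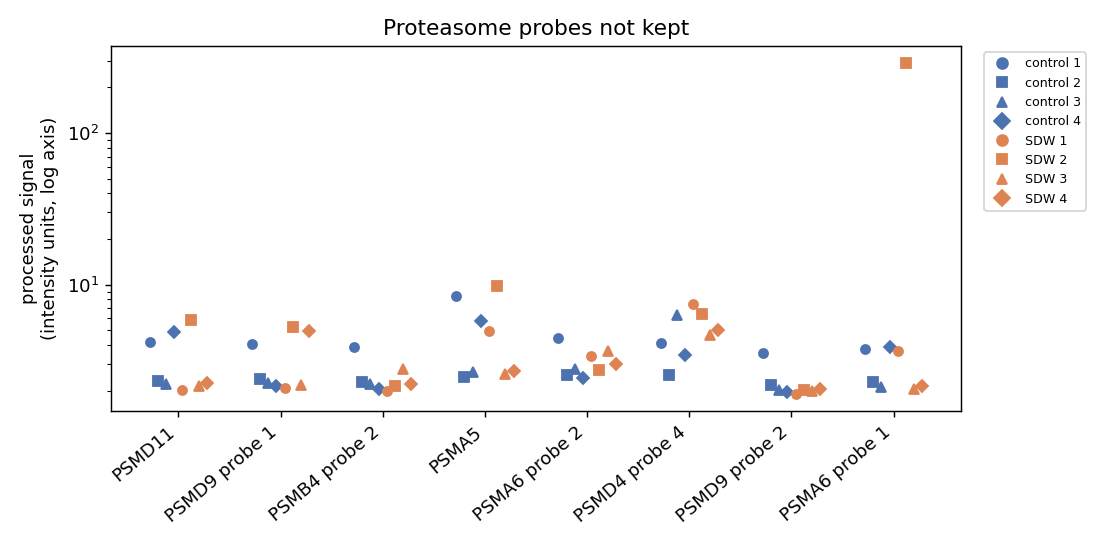
Processed signal in intensity units (log axis) of the 8 proteasome probes that were not kept, on each of the 8 arrays; blue symbols are controls and orange symbols SDW animals. Signals stay between 1.90 and 9.78 except PSMA6 probe 1 in SDW 2, at 292.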

How the data were processed

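Whole blood RNA of 8 pigs, 4 a diet, was read on Agilent single-colour arrays. The scanner files hold spot intensities after background subtraction and detrending, deposited by the authors as linear processed signals with no scaling between arrays, made with Feature Extraction 10.1.1.1 per the file headers and 9.5.3.1 per the submitters' processing notes. The authors' deposited value table also holds intensities; 7 of its 8 columns held the values of a different animal on the same diet when set against the scanner files, so replicate names follow the scanner files and the table served as an alternative.

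Control and outlier spots were left out (no proteasome spot was an outlier), spots of a probe were averaged, and each array was scaled by its 75th percentile on the log2 scale. Probes well above background on at least 4 of 8 arrays were tested in R 4.3.3 with limma 3.58.1 (lmFit, eBayes, two-sided, Benjamini-Hochberg over all 17355, threshold 0.05); the scripts were tested on simulated data. The brightest kept probe on average stood for a gene. Values in every animal were given for the 3 genes of smallest p in each class, PSMB7, the 4 genes of widest range and genes whose kept probes disagreed in sign by over 0.3; other members were described by ranges, and probes added to these were chosen after their values were seen. The members and lists were chosen with earlier results of these data known. Alternatives were background correction (normexp, offset 50), quantile and median normalization, filters, slide and replicate blocks, array weights, a variance trend, the authors' table, the mean of a gene's probes and each array left out. Deviations of same-numbered animals from the diet means correlated at -0.17, 0.11, 0.33 and -0.38, where only the animals numbered 3 shared a slide. These values cannot decide whether the replicate numbers pair the animals. The 4 genes of smallest p on the ubiquitin pathway list were also to be named, of which 1 is not reported here. Promoters, proteins and genome positions were not used here. The number of arrays limits the precision.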

Additional observations from a re-analysis of the deposited data

Results flagged for a closer look

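In groups of 4 animals, 4 values stood farther from their group than Dixon's 95% critical value allows (the gap to the nearest animal as a share of the range), among 42 groups of 4 examined. Chance alone marks about 1 in 20 such groups. PSMA6 probe 1 stood at 2.00 in SDW 2, with the next SDW animal at -4.06. PSMB4 probe 1 stood at 5.34 in control 4, below the other controls, which lay between 5.77 and 5.81. PSMD8 stood at 6.26 in control 4, below the other controls, which lay between 6.70 and 6.77. PSME2 probe 1 stood at 5.89 in control 1, above the other controls, which lay between 5.14 and 5.26. The causes were not tested.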

How the results depend on the processing

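No proteasome gene passed the limma threshold in any of 297 combinations of gene and setting; 3 had an unadjusted p under 0.05, and the smallest adjusted p was 0.639. The signs of PSMB7, PSMD10, PSMD1 and PSME2 held in all settings run, and 9 genes with differences of at most 0.26 in absolute size changed sign in some. PSMC2 was at -0.015 with normexp, -0.011 with quantile normalization, -0.062 with both, -0.090 and -0.050 with slide as a fixed and a random block, and -0.013 in the authors' table. PSME1 was at 0.034 with normexp, 0.017 with normexp and quantile normalization, 0.028 with median scaling, 0.084 with array weights, and 0.22 without slide 3 (0.11 with a slide block as well). ECM29 was at 0.0098 with normexp and 0.023 with median scaling. SEM1 was at 0.078 and 0.027 with slide as a fixed and a random block and at 0.12 without slide 3 and with a slide block. PSMB4 was at -0.030 and -0.0072 with slide as a fixed and a random block. PSMD12 was at 0.18 with array weights and at 0.14 and 0.16 without slide 3, without and with a slide block, and PSME3 at 0.0061 without slide 3. Leaving out 1 animal at a time, ECM29 ranged from -0.14 to 0.090, PSMB4 from -0.15 to 0.21, PSMC2 from -0.24 to 0.16, PSMD12 from -0.25 to 0.13, PSMD4 from -0.39 to 0.028, PSMD8 from -0.047 to 0.13, PSME1 from -0.17 to 0.17, PSME3 from -0.40 to 0.077 and SEM1 from -0.21 to 0.16; the number of genes with a higher SDW mean ranged from 3 (without SDW 2) to 10 (without SDW 4) and of those with a lower one from 3 to 10. Without both arrays of slide 3, chosen after seeing the data, 8 genes were higher and 5 lower, with and without a slide block, and over all probes 1 passed, an unnamed probe singled out after its values were seen and no proteasome probe. The median correlation of the proteasome genes was 0.52 with normexp, 0.30 over the arrays of slides 1 and 2, 0.29 after subtraction of the slide means and 0.26 with quantile normalization over those 6 arrays. With the replicate block (limma, replicate number as a term), 0 of all kept probes were called and 239 lay under an unadjusted p of 0.05, against 251 without the block; the labels do not say that the numbers pair the animals. Why these values moved was not tested. With 4 arrays a diet, and PSMD1 probe 1, PSME3 and PSMD10 probe 2 not well above background on some arrays, small differences could not be resolved.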

Other observations

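Proteasome genes whose probe annotation lacks the word proteasome were looked at after the data were seen, with PSMA4, PSMC1 and PSMC5 named through accessions or symbols. PSMA4, a core alpha subunit, was well above background on all 8 arrays, with levels of 1.61, 1.63, 1.89 and 1.68 in the controls and 2.05, 2.38, 1.13 and 1.32 in the SDW animals. SDW 1 and SDW 2 lay above every control and SDW 3 and SDW 4 below every control, and the means differed by 0.020 with an SE of 0.30 (limma, adjusted p = 1.00). PSMC5, an ATPase subunit, had differences of 0.13 and 0.12 on its 2 probes, with SEs of 0.29 and 0.28, and was highest in control 3 and lowest in control 4 on both.

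PSMC1, another ATPase subunit, differed by -0.20 with an SE of 0.27 on probe 1. Its probe 2 was well above background on SDW 2 alone, at 1.01, while the highest of the other 7 arrays was at -3.86. That spot sat at row 175 and column 4 of the array, in the same area as PSMA6 probe 1.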
